A study of Mus musculus with 24 samples.

Results

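Potassium channel genes were taken as every probe set annotated to a single gene symbol that starts with Kcn, which gave 167 probe sets for 84 genes out of 45037 probe sets and 18193 genes on the array. The symbols cover pore-forming channel subunits, their accessory subunits and 3 noncoding genes named after channel genes. By symbol, 65 probe sets (31 genes) belonged to voltage-gated channels and 31 (15 genes) to inward rectifiers. Another 24 (12 genes) belonged to accessory subunits, 21 (11 genes) to calcium- or sodium-activated channels, 18 (12 genes) to 2-pore channels and 8 to the 3 noncoding genes. Probe sets were taken by name and not by a measured value, but the family was chosen with earlier results of these data known.

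RNA from 24 mouse hearts, taken at 90 days of age, was hybridised to Affymetrix arrays, with 6 biological replicates for each of 4 genotypes. ARG hearts carried the human beta1-adrenergic receptor in its Arg389 form, GLY hearts the human receptor in its Gly389 form, and AC5 hearts human AC5 (adenylyl cyclase of type 5). All 3 transgenes were driven in cardiac myocytes by the alpha-myosin heavy chain promoter, and NTG hearts were non-transgenic. The labels do not say how many founder lines stood behind a genotype.

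Voltage-gated potassium channels open when the membrane depolarises and end the action potential, inward rectifiers hold the resting potential, and 2-pore channels carry background current. In the mouse ventricle, repolarisation rests largely on a fast transient outward current, formed by Kcnd2 and Kcnd3 with the accessory subunit Kcnip2, and on delayed rectifiers such as that formed by Kcna5. Beta1-adrenergic receptors raise cyclic AMP through adenylyl cyclases, and protein kinase A then acts on several of these channels.

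The deposited values were ratios to about the NTG level, so each gene was followed across hearts, but the levels of different genes could not be compared. For the same reason it could not be checked whether defining markers of heart muscle, or of any other cell type, were absent. Over all probe sets the ratios lay between 0.0636 and 34.8. The mean ratio of NTG replicates 1 to 3, and likewise that of NTG replicates 4 to 6, stayed close to 1, with an SD over probe sets of 0.0331 and 0.0413, against 0.0868 to 0.12 for single NTG arrays. It is not stated whether the division used all 6 NTG hearts or was made within each of these 2 sets of 3, and in the second case the spread between NTG hearts holds no difference between the sets. With the set as a term in the fit, all 23 called gene results described below kept their call. The labels name no batch, so changes are also given for replicates 1 to 3 and for replicates 4 to 6 of all genotypes. The arrays of GLY replicate 3, GLY replicate 1 and ARG replicate 1 had the lowest estimated weights (0.312, 0.354 and 0.478). Among the potassium channel probe sets, the median SD of log2 ratios between replicates was 0.176 in ARG, 0.182 in GLY, 0.136 in AC5 and 0.129 in NTG hearts.

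Few potassium channel probe sets changed in any genotype, and most of those called in ARG hearts were lower there. In ARG against NTG hearts, 11 of 167 probe sets were called at an adjusted p under 0.05 (limma, Benjamini-Hochberg over all probe sets), which is 6.59% beside 9.67% of all probe sets. Of these, 3 probe sets of 3 genes rose and 8 probe sets of 6 genes fell, beside 4.04% of all probe sets that rose and 5.63% that fell. The ratios of the 6 ARG and the 6 NTG hearts did not overlap for 10 probe sets (5.99%, beside 6.11% of all), and 38 had an unadjusted p under 0.05 (22.8%, beside 20.2% of all). The channel genes were thus called no more often than the array as a whole, and their median log2 change was 0.00, as over all probe sets.

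In GLY against NTG hearts 5 of 167 probe sets were called (2.99%, beside 5.08% of all), 2 of which rose (beside 1.55% of all) and 3 fell (beside 3.53%), each in a different gene. The median log2 change was 0.05 over the channel probe sets and 0.03 over all. In AC5 against NTG hearts 0 of 167 were called with limma, beside 0.142% of all, and 13 had an unadjusted p under 0.05 (7.78%, beside 7.26% of all). All 3 comparisons used the same 6 NTG hearts, so their values are not independent of each other. By family, 5 of 65 voltage-gated (7.69%), 2 of 24 accessory (8.33%) and 1 of 31 inward rectifier probe sets (3.23%) were called in ARG hearts. The rest of the 11 calls fell on 1 of 18 2-pore (5.56%), 1 of 21 calcium- or sodium-activated (4.76%) and 1 of 8 noncoding probe sets (12.5%). The share over all probe sets was 9.67%. Every one of these 11 changes, and of the 5 in GLY hearts, had the same sign in replicates 1 to 3 as in replicates 4 to 6.

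**Figure D1:**
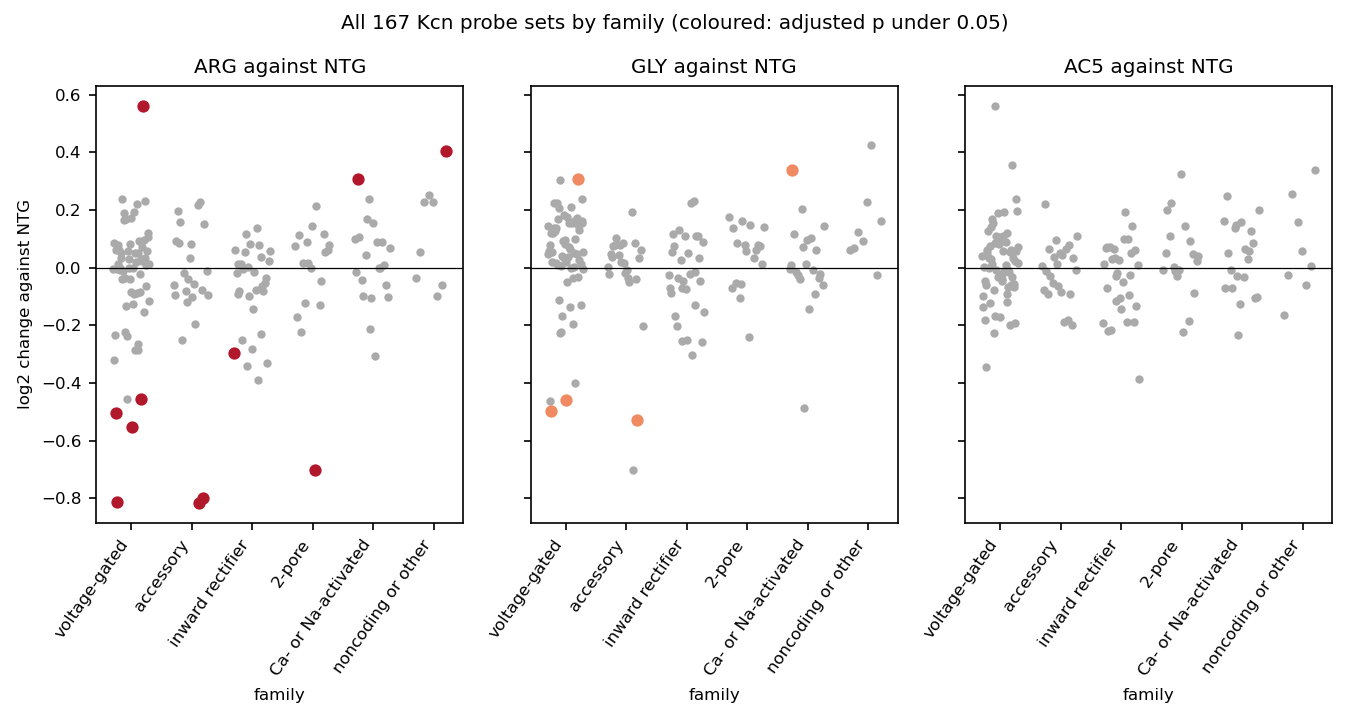
Log2 change against NTG of all 167 potassium channel probe sets, by family, in ARG, GLY and AC5 hearts (1 panel each); each point is a probe set, and coloured points had an adjusted p under 0.05. Most points lie close to 0, and the 8 called falls in ARG hearts come from voltage-gated, accessory, inward rectifier and 2-pore genes.

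Some markers of other cells moved in the same hearts, counted here as genes with at least 1 called probe set. Of 10 macrophage markers 6 rose in ARG hearts, 0 rose and 1 fell in GLY hearts, and the mean log2 ratio of the list (1 probe set a gene) lay between 0.14 and 0.91 over ARG, between -0.40 and 0.47 over GLY, between -0.24 and 0.14 over AC5 and between -0.13 and 0.09 over NTG hearts. Of 10 fibroblast markers 5 rose and 1 fell in ARG hearts, and of 10 endothelial markers 4 fell in ARG and 2 in GLY hearts. Over all probe sets of these 3 lists, 57.1%, 56.5% and 52.9% were called in ARG hearts, beside 9.67% of all. Of 10 smooth muscle and pericyte markers 1 (Acta2) rose in ARG and in GLY hearts, of 6 atrial markers 1 rose in ARG hearts, and of 10 cardiac muscle markers 2 fell in ARG and 2 in GLY hearts. Over all probe sets of these lists, 5%, 11.1% and 7.69% were called in ARG hearts, near the 9.67% of all. In GLY hearts the shares were 5%, 0% and 7.69%, beside 5.08% of all. The mean log2 ratio of the atrial list lay between -0.27 and 0.88 over ARG and between -0.20 and 0.94 over GLY hearts. It lay between -0.74 and 0.41 over AC5 and between -0.31 and 0.21 over NTG hearts. The mean log2 ratio of the cardiac muscle list lay between -0.29 and -0.02 over ARG, between -0.36 and 0.09 over GLY, between -0.22 and 0.01 over AC5 and between -0.16 and 0.14 over NTG hearts. In RNA of whole hearts fewer cells of a type and less RNA per cell cannot be told apart, and the part of these shifts in the channel results was not tested.

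All 3 genes of the fast transient outward current, Kcnip2, Kcnd2 and Kcnd3, fell at 1 or 2 of their probe sets in ARG hearts, and Kcnip2 and Kcnd3 also in GLY hearts. The sequences upstream of the 3 genes are shown because all 3 were called in the same direction in ARG hearts. Each is the 250 bases before the RefSeq start (build GRCm38.p6), 5′ to 3′ on the gene's strand, at chr19:45816064-45816313 (minus strand) for Kcnip2, chr6:21215096-21215345 (plus strand) for Kcnd2 and chr3:105451640-105451889 (plus strand) for Kcnd3.
Kcnip2: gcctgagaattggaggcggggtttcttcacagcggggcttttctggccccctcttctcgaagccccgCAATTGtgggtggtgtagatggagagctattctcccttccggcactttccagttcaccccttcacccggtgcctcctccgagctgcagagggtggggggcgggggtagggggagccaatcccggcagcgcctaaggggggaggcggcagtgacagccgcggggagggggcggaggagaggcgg
Kcnd2: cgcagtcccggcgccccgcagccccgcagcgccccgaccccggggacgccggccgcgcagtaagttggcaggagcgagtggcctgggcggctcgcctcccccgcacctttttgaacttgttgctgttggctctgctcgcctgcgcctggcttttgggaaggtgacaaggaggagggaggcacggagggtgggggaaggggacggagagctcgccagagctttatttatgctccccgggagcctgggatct
Kcnd3: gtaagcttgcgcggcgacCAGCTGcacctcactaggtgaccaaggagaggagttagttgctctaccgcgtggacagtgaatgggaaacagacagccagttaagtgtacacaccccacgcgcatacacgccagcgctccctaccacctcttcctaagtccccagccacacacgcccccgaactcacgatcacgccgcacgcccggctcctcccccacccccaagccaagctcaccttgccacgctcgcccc
Capitals mark E boxes (CANNTG, bound by basic helix-loop-helix factors), of which Kcnip2 and Kcnd3 had 1 each and Kcnd2 had 0, while 66.2% of 32851 mouse promoter windows of this length held at least 1. The other letters searched on both strands were TGACG (core of the cyclic AMP response element) and GATAA (GATA factors). Neither was found in the 3 windows, and 17.8% and 22.6% of all windows held them. The 3 windows had a GC content of 66.8%, 68.8% and 62.8%, above the median of 52.4% over all windows, and 64 of the 84 channel genes had such a window in the table.

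Kcnip2 encodes KChIP2, a calcium-binding subunit that brings Kcnd channels to the membrane and slows their inactivation. At its probe set 1436275_at the ratio lay between 0.485 and 0.698 (median 0.566) in ARG hearts and between 0.602 and 0.846 (median 0.676) in GLY hearts. It lay between 0.774 and 0.947 (median 0.880) in AC5 hearts and between 0.868 and 1.18 (median 0.970) in NTG hearts. All ARG and all GLY hearts lay below the lowest NTG heart, while AC5 hearts overlapped with NTG hearts. Kcnip2 fell by 0.80 ± 0.09 (log2, SE; adjusted p = 1.44e-06) in ARG hearts, a level 42.5% lower, and by 0.53 ± 0.09 (adjusted p = 0.00135) in GLY hearts. The change in AC5 hearts was -0.20 ± 0.09 (adjusted p = 0.665). Within replicates 1 to 3 and 4 to 6 the ARG change was -0.85 and -0.75, and the call in ARG hearts was kept under every alternative run.

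A second Kcnip2 probe set, 1425870_a_at, ranged between 0.431 and 0.710 (median 0.595) in ARG hearts, between 0.256 and 0.845 (median 0.729) in GLY hearts and between 0.745 and 1.43 (median 1.01) in NTG hearts. It fell by 0.82 ± 0.21 (adjusted p = 0.0112) in ARG hearts, and the groups did not overlap. Its change in GLY hearts was -0.70 ± 0.21 with an adjusted p of 0.05005, just above the threshold, and GLY replicate 2 was the lowest heart there. With the deposited scale replaced by quantile normalization, the ARG change was -0.62 (adjusted p = 0.152). The remaining Kcnip2 probe set, 1421783_a_at, was not called in ARG (-0.20) or GLY hearts (-0.05), so the probe sets of this gene gave unequal changes.

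Kcnd3 encodes Kv4.3, a pore-forming subunit of the same current. Its probe set 1435720_at had ratios between 0.538 and 0.842 (median 0.662) in ARG hearts and between 0.580 and 0.848 (median 0.727) in GLY hearts, against 0.783 to 1.05 (median 0.848) in AC5 hearts and 0.828 to 1.13 (median 0.996) in NTG hearts. The highest ARG and the highest GLY heart overlapped with the lowest NTG heart. Kcnd3 fell by 0.55 ± 0.11 (adjusted p = 0.00114) in ARG hearts and by 0.46 ± 0.11 (adjusted p = 0.0138) in GLY hearts. The GLY change was -0.72 in replicates 1 to 3 and -0.21 in replicates 4 to 6, and it was not called without the 3 arrays of lowest weight (-0.33, adjusted p = 0.122) or with quantile normalization (-0.32, adjusted p = 0.1431). The other 3 Kcnd3 probe sets were not called and changed by -0.23 to 0.01 in ARG hearts.

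Kcnd2 encodes Kv4.2, the other pore-forming subunit. At 1422835_at the ratio lay between 0.607 and 0.823 (median 0.703) in ARG hearts, against 0.892 to 1.20 (median 0.972) in NTG hearts. Every ARG heart was below every NTG heart. Kcnd2 fell by 0.50 ± 0.15 (adjusted p = 0.0253) there and by 0.46 ± 0.14 (adjusted p = 0.0414) at 1450773_at, and 2 further probe sets were not called (-0.29 and -0.01). The first call was lost without NTG replicate 3, ARG replicate 4 or ARG replicate 5 (adjusted p = 0.0731, 0.052 and 0.0641), and the second in 10 of 12 such omissions, all but those of ARG replicates 3 and 6 (adjusted p up to 0.102), and with arrays centred on their median (adjusted p = 0.06404). In GLY hearts 1422835_at was not called (-0.46 ± 0.15, adjusted p = 0.0633). There GLY replicates 1 and 3 stood at 0.513 and 0.442, apart from 0.815 to 1.07 in the other GLY hearts. Kcna4, the subunit of the slow transient outward current, was not called in any line at either of its 2 probe sets. At 1422255_at it changed by -0.22 in ARG, -0.23 in GLY and -0.23 in AC5 hearts. The other probe set, 1438613_at, changed by -0.003 in GLY and by 0.07 in AC5 hearts.

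**Figure D2:**
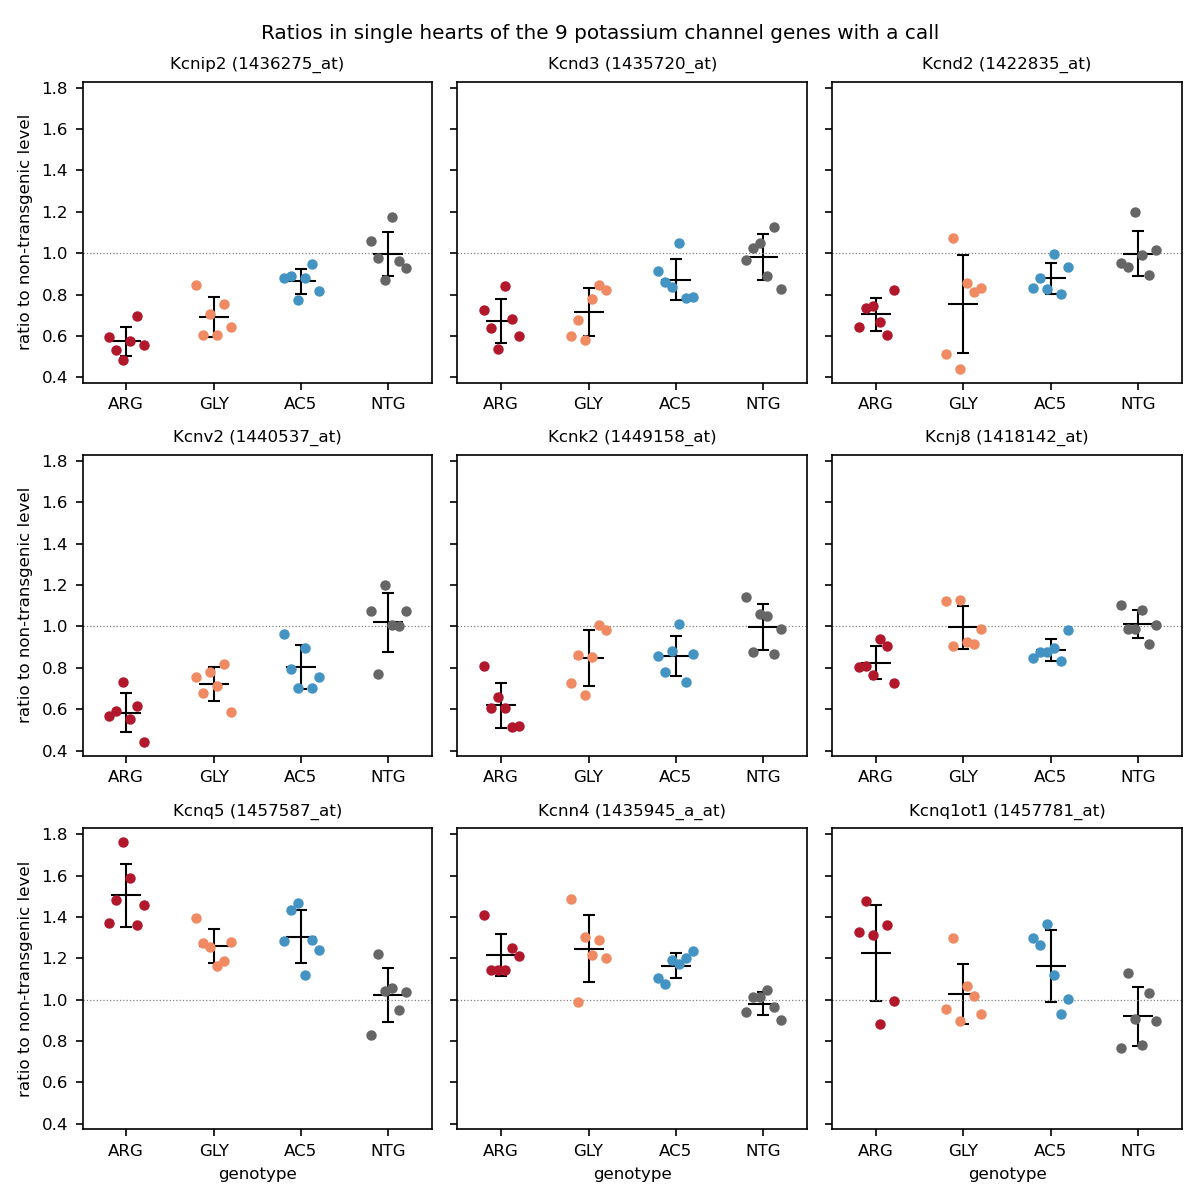
Ratio to the non-transgenic level in each heart for the 9 potassium channel genes with a call against NTG or between ARG and GLY, 1 probe set each, by genotype (6 hearts each); points are hearts, the long bar is the mean and the error bars are the SD. The points of Kcnip2, Kcnv2 and Kcnk2 in ARG hearts lie below all NTG points, and those of Kcnq5 lie above them.

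Kcnv2, also among the voltage-gated genes, encodes Kv8.2, a silent subunit that forms no channel alone and modifies other voltage-gated channels. Its only probe set, 1440537_at, had ratios between 0.440 and 0.733 (median 0.578) in ARG hearts and between 0.588 and 0.817 (median 0.732) in GLY hearts. AC5 hearts lay between 0.702 and 0.962 (median 0.775) and NTG hearts between 0.768 and 1.20 (median 1.04). All ARG hearts were below all NTG hearts, and the lowest NTG heart, replicate 2, stood among the GLY and AC5 hearts. Kcnv2 fell by 0.81 ± 0.11 (adjusted p = 1.75e-05) in ARG hearts, a level 43.0% lower, and by 0.50 ± 0.11 (adjusted p = 0.00985) in GLY hearts. In AC5 hearts the change was -0.34 ± 0.11 (adjusted p = 0.33). The ARG change was -0.67 and -0.95 within replicates 1 to 3 and 4 to 6, and the GLY change -0.44 and -0.55. With quantile normalization the GLY change was -0.44 (adjusted p = 0.188).

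Kcna5 encodes Kv1.5, a delayed rectifier of mouse ventricle and, in humans, of the atrium. It varied widely, with ratios between 0.449 and 1.33 (median 0.585) in ARG hearts, between 0.699 and 0.986 (median 0.773) in GLY hearts, between 1.17 and 1.52 (median 1.42) in AC5 hearts and between 0.698 and 1.23 (median 0.954) in NTG hearts. ARG replicates 1 and 6 stood at 1.10 and 1.33, among or above the NTG hearts, and the other 4 ARG hearts between 0.449 and 0.650, below all NTG hearts. Neither ARG (-0.46 ± 0.21, adjusted p = 0.203) nor AC5 hearts (0.56 ± 0.21, adjusted p = 0.446) passed the test against NTG.

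Of the channels of the slower delayed rectifiers, Kcnh2 (ERG1, the rapid component), Kcnq1 and its accessory subunit Kcne1 (the slow component) were not called in any line. Kcnh2 changed by -0.32 ± 0.13 (adjusted p = 0.15) in ARG hearts and by 0.15 ± 0.13 (adjusted p = 0.617) in GLY hearts. Kcne1, at 1420672_at, changed by -0.25 ± 0.10 (adjusted p = 0.139) in ARG hearts and by 0.10 ± 0.10 (adjusted p = 0.648) in GLY hearts. Kcnq1 changed by 0.22 ± 0.09 in ARG hearts (adjusted p = 0.118) and by 0.21 ± 0.09 in GLY hearts (adjusted p = 0.17), and its AC5 change was 0.01.

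Kcnq5 encodes Kv7.5, a channel of the M-type current known mainly from neurons and smooth muscle. At 1457587_at its ratio lay between 1.36 and 1.76 (median 1.47) in ARG hearts, between 1.16 and 1.40 (median 1.26) in GLY hearts, between 1.12 and 1.47 (median 1.29) in AC5 hearts and between 0.827 and 1.22 (median 1.04) in NTG hearts. Every ARG heart was above every NTG heart, and the GLY and AC5 hearts overlapped with the highest NTG heart. Kcnq5 rose by 0.56 ± 0.09 (adjusted p = 6.86e-05) in ARG hearts, 1.48-fold, and by 0.31 ± 0.09 (adjusted p = 0.0373) in GLY hearts. The AC5 change was 0.36 ± 0.09 but was not called (adjusted p = 0.114). The ARG change was 0.59 and 0.53 within replicates 1 to 3 and 4 to 6. The GLY call was lost in 7 of 12 omissions of a heart, those of NTG replicates 1, 3, 5 and 6 and GLY replicates 1, 2 and 3 (adjusted p up to 0.108), and in 7 of 10 other settings, among them quantile normalization (0.22, adjusted p = 0.4497). The other 2 Kcnq5 probe sets were not called and changed by 0.17 and 0.19 in ARG hearts. Of the 10 smooth muscle and pericyte markers 1 rose in ARG hearts, at 1 of the 20 probe sets of the list (5%). Of the 5 nerve and glia markers found 2 rose (Prph and Tubb3), at 2 of 11 probe sets (18.2%, beside 4.04% of all that rose). Their part in the Kcnq5 result was not tested.

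Among the inward rectifiers 1 of 31 probe sets was called in ARG hearts (3.23%, beside 9.67% of all). In GLY and AC5 hearts 0 were called, beside 5.08% and 0.142% of all. Kcnj8 encodes Kir6.1, the pore of ATP-sensitive channels in vascular smooth muscle and pericytes. Its ratio lay between 0.728 and 0.941 (median 0.806) in ARG hearts, between 0.904 and 1.13 (median 0.957) in GLY hearts, between 0.835 and 0.984 (median 0.876) in AC5 hearts and between 0.914 and 1.10 (median 0.997) in NTG hearts. Only the highest ARG heart reached the NTG range. Kcnj8 fell by 0.30 ± 0.08 (adjusted p = 0.012) in ARG hearts, and the change in GLY hearts was -0.03 ± 0.08 (adjusted p = 0.906). Kcnj11, which encodes Kir6.2, the pore of the ATP-sensitive channel of heart muscle, was not called at its probe set 1450515_at (-0.14 ± 0.24 in ARG hearts) or 1455417_at (-0.23 ± 0.09, adjusted p = 0.137).

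The genes of the strong inward rectifier, Kcnj2 (Kir2.1) and Kcnj12 (Kir2.2), were not called in ARG hearts, with estimates of -0.08 each and 95% intervals from -0.41 to 0.25 and from -0.30 to 0.14. Kcnj3 and Kcnj5 encode Kir3.1 and Kir3.4, which form the acetylcholine-activated channel of atria and nodes. In ARG hearts the change was -0.28 ± 0.12 (adjusted p = 0.18) for Kcnj3 at 1421468_at and -0.25 ± 0.15 for Kcnj5 at 1421762_at, neither of them called. Of the 4 Kcnj3 probe sets 0 were called. With only the 2 genotypes fitted, 1444025_at (-0.39) and 1455374_at (-0.34), named after their values were seen, were called (adjusted p = 0.0306 and 0.0418). Without the 3 arrays of lowest weight 1421468_at, 1444025_at and 1455374_at were called (adjusted p = 0.03615, 0.04404 and 0.02166). A second Kcnj5 probe set, 1441590_at, named after its values were seen, had ratios between 0.618 and 0.914 (median 0.800) in ARG hearts and between 0.934 and 1.05 (median 0.990) in NTG hearts. Its groups did not overlap, but its change of -0.33 ± 0.11 was not called (adjusted p = 0.0513). This probe set was called with quantile normalization (adjusted p = 0.0378) and with array weights (adjusted p = 0.00966). It was also called without the 3 arrays of lowest weight (adjusted p = 0.0048) and with only the 2 genotypes fitted (adjusted p = 0.0165).

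**Figure D3:**
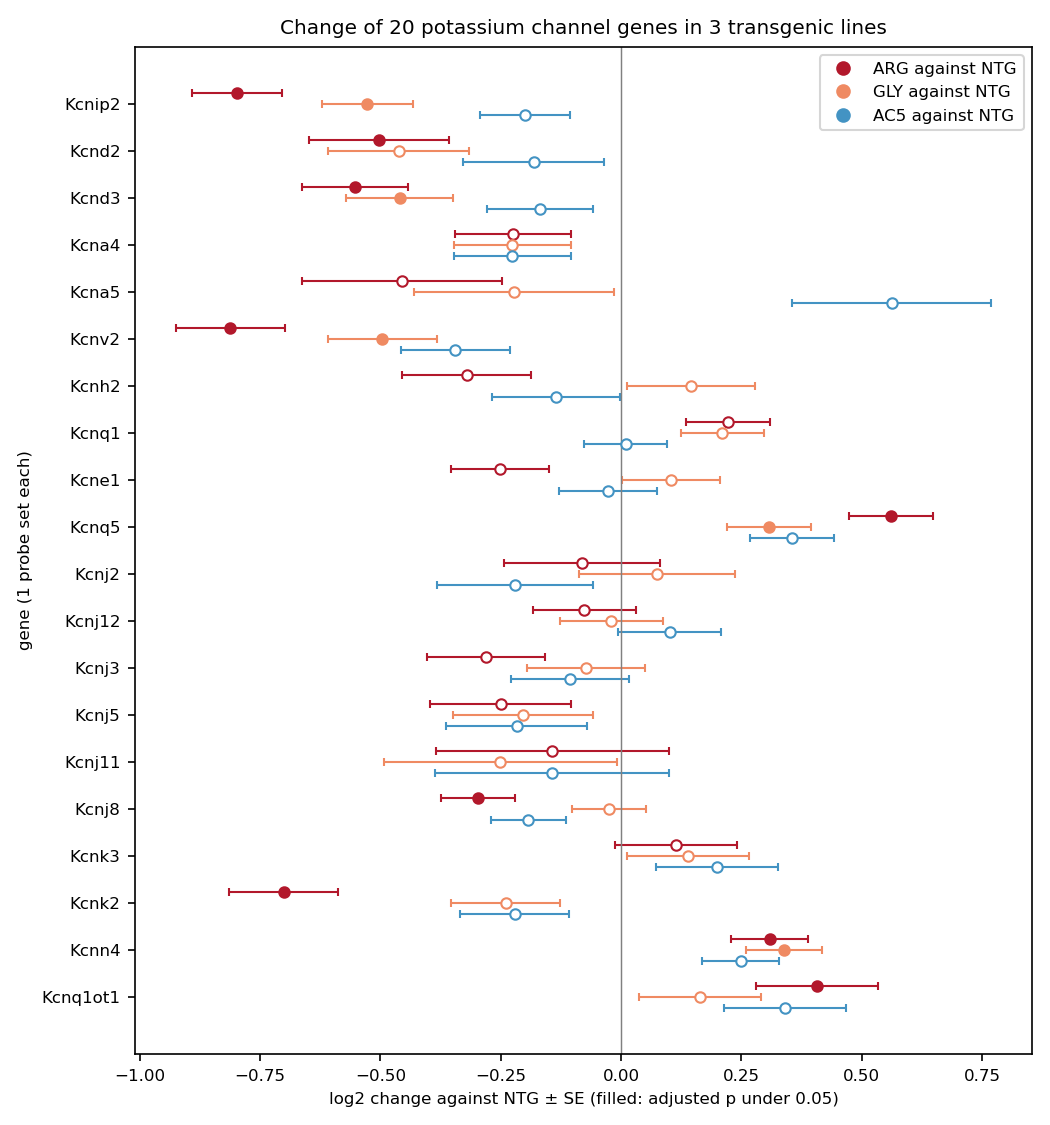
Log2 change ± SE against NTG of 20 potassium channel genes (1 probe set each) in ARG, GLY and AC5 hearts; filled points had an adjusted p under 0.05. The largest falls, at Kcnip2, Kcnv2 and Kcnk2, are in ARG hearts, where the points of Kcnj2 and Kcnj12 lie close to 0.

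Kcnk2 encodes TREK-1, a 2-pore channel opened by stretch and by membrane lipids and closed by protein kinase A. Its ratio lay between 0.511 and 0.807 (median 0.606) in ARG hearts, between 0.668 and 1.01 (median 0.857) in GLY hearts, between 0.730 and 1.01 (median 0.864) in AC5 hearts and between 0.865 and 1.14 (median 1.02) in NTG hearts. All ARG hearts were below all NTG hearts, with ARG replicate 1 the highest of them. Kcnk2 fell by 0.70 ± 0.11 (adjusted p = 0.000108) in ARG hearts, a level 38.5% lower, and it kept that call under every alternative run. The changes in GLY (-0.24 ± 0.11, adjusted p = 0.245) and AC5 hearts (-0.22 ± 0.11, adjusted p = 0.721) were not called. Kcnk3, which encodes the acid-sensitive 2-pore channel TASK-1, was not called, with a change of 0.11 ± 0.13 in ARG hearts.

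Kcnn4 encodes KCa3.1, a calcium-activated channel known from red blood cells, lymphocytes, macrophages and fibroblasts. At 1435945_a_at its ratio lay between 1.14 and 1.41 (median 1.18) in ARG hearts, between 0.987 and 1.49 (median 1.25) in GLY hearts, between 1.08 and 1.24 (median 1.18) in AC5 hearts and between 0.901 and 1.05 (median 0.988) in NTG hearts. All ARG and all AC5 hearts lay above all NTG hearts, and 1 GLY heart lay within the NTG range. Kcnn4 rose by 0.31 ± 0.08 (adjusted p = 0.0112) in ARG hearts and by 0.34 ± 0.08 (adjusted p = 0.0121) in GLY hearts, and its change of 0.25 ± 0.08 in AC5 hearts was not called (adjusted p = 0.308). The GLY call was lost in 5 of 10 alternative settings, without the 3 arrays of lowest weight (0.25, adjusted p = 0.0692), with quantile normalization (0.30, adjusted p = 0.05019), with only the 2 genotypes fitted (adjusted p = 0.05755) and with either set of 3 replicates alone (adjusted p up to 0.1845). The other Kcnn4 probe set, 1421038_a_at, was not called in any line. It changed by 0.24 in ARG, by 0.07 in GLY and by -0.03 in AC5 hearts. Of 10 macrophage markers 6 rose in ARG hearts, while 0 rose and 1 (Cd163) fell in GLY hearts. Of 10 fibroblast markers 5 rose and 1 (Gsn) fell in ARG hearts, and 0 were called in GLY hearts. Over all probe sets of these lists, 57.1% and 56.5% were called in ARG hearts, beside 9.67% of all. The shares in GLY hearts were 7.14% and 0%, beside 5.08% of all. The part of these markers in the Kcnn4 result was not tested.

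Kcnq1ot1 is the imprinted noncoding RNA transcribed antisense to Kcnq1. Of its 6 probe sets only 1457781_at was called in ARG hearts, with ratios between 0.885 and 1.48 (median 1.32), against 0.769 to 1.13 (median 0.902) in NTG hearts. ARG replicates 4 and 6 lay within the NTG range. Kcnq1ot1 rose by 0.41 ± 0.13 (adjusted p = 0.0396) there, with 0.57 in replicates 1 to 3 and 0.24 in replicates 4 to 6. The call was lost in 8 of 12 omissions of a heart, all but those of NTG replicates 2 and 5 and ARG replicates 4 and 6 (adjusted p up to 0.105). It was also lost in 5 of 10 other settings, among them quantile normalization (adjusted p = 0.0762) and the fit of only the 2 genotypes (adjusted p = 0.05284). The other 5 probe sets changed by -0.10 to 0.25 and were not called.

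**Figure D4:**
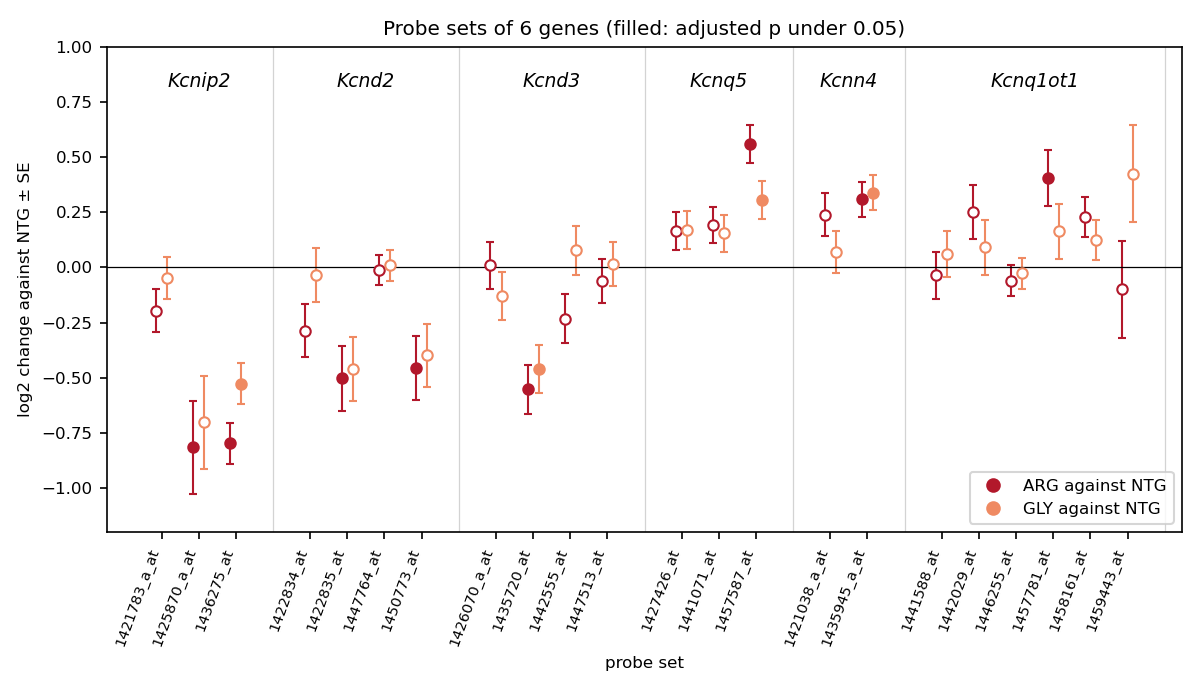
Log2 change ± SE of every probe set of 6 genes with a call and several probe sets, in ARG and GLY hearts against NTG; filled points had an adjusted p under 0.05. Within Kcnip2, Kcnd2 and Kcnd3 some probe sets fell while others stayed near 0, as 1447764_at of Kcnd2 did with -0.01 in ARG hearts.

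The comparison between the receptor forms asks where the Arg389 form differed from the Gly389 form. Of the 167 probe sets 1 was called in ARG against GLY hearts (0.599%, beside 1.51% of all, with 0.713% of all lower in ARG hearts), and 13 had an unadjusted p under 0.05 (7.78%, beside 13.5% of all). The called gene was Kcnk2, which fell by 0.46 ± 0.11 (adjusted p = 0.0332) in ARG against GLY hearts. Its difference was -0.13 in replicates 1 to 3 and -0.80 in replicates 4 to 6. The call was lost in 7 of 12 omissions of a heart, those of GLY replicates 2, 4 and 5 and ARG replicates 2, 4, 5 and 6 (adjusted p up to 0.0901). It was also lost with quantile normalization (-0.44, adjusted p = 0.151), with arrays centred on their median (-0.43, adjusted p = 0.0645) and with only these 2 genotypes fitted (adjusted p = 0.204).

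Several genes stood short of the threshold between the receptor forms. Kcnh2 differed by -0.47 ± 0.13 (adjusted p = 0.0761), with ratios between 0.690 and 1.08 (median 0.798) in ARG hearts and between 0.800 and 1.71 (median 1.17) in GLY hearts. Kcnj8 differed by -0.27 ± 0.08 (adjusted p = 0.0755) and Kcne1 by -0.36 ± 0.10 (adjusted p = 0.0797). The difference for Kcnip2 was -0.27 ± 0.09 (adjusted p = 0.163, 95% interval from -0.46 to -0.08) and for Kcnv2 -0.32 ± 0.11 (adjusted p = 0.185, interval from -0.55 to -0.08). For Kcnd3 it was -0.09 ± 0.11, with an interval from -0.32 to 0.13.

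Against AC5 hearts, 6 of 167 probe sets were called in ARG hearts (3.59%, beside 4.93% of all), 1 of which rose (beside 2.52% of all) and 5 fell (beside 2.41%). Kcna5 fell by 1.02 ± 0.21 (adjusted p = 0.00284), to a level 50.6% lower in ARG than in AC5 hearts, with -1.17 and -0.87 within replicates 1 to 3 and 4 to 6. ARG replicate 6 alone reached the AC5 range. Kcnip2 fell by 0.60 ± 0.09 (adjusted p = 0.000179) with no overlap, Kcnk2 by 0.48 ± 0.11 (adjusted p = 0.00982), Kcnv2 by 0.47 ± 0.11 (adjusted p = 0.0123) and Kcnd3 by 0.38 ± 0.11 (adjusted p = 0.0392). The Kcnd3 call was lost in 8 of 12 omissions of a heart, all but those of AC5 replicates 5 and 6 and ARG replicates 1 and 4 (adjusted p up to 0.116), and with arrays centred on their median (adjusted p = 0.05834). With quantile normalization Kcnd3 (-0.29, adjusted p = 0.2124), Kcnv2 (-0.30, adjusted p = 0.4988) and Kcnk2 (-0.37, adjusted p = 0.1113) were not called.

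The rise was in Kcnj14, which encodes the inward rectifier Kir2.4 and is named here after its values were seen. Its ratio lay between 0.897 and 1.31 (median 1.03) in ARG hearts, between 0.703 and 0.914 (median 0.772) in AC5 hearts and between 0.894 and 1.18 (median 1.02) in NTG hearts. The AC5 hearts were the low ones, and the ARG and NTG hearts overlapped throughout. Kcnj14 was higher by 0.45 ± 0.10 (adjusted p = 0.00779) in ARG than in AC5 hearts. In AC5 against NTG hearts its change of -0.39 ± 0.10 was not called (adjusted p = 0.155).

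In GLY against AC5 hearts 0 of 167 probe sets were called with limma, beside 0.693% of all, and 19 had an unadjusted p under 0.05 (11.4%, beside 11.8% of all). The largest difference was that of Kcna5, -0.78 ± 0.21 (adjusted p = 0.076), where all GLY hearts lay below all AC5 hearts.

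Of 28 listed partners of potassium channels 26 were found on the array, with 62 probe sets. In ARG hearts 1 probe set rose and 9 fell (16.1%, beside 9.67% of all), in GLY hearts 2 rose and 4 fell (9.68%, beside 5.08%), and in AC5 hearts 1 fell (1.61%, beside 0.142%). By gene, Lrrc52 rose and Abcc8, Abcc9, Akap9, Irx4, Nedd4l and Rnf207 fell in ARG hearts at 1 or more probe sets. Alternative settings were not run for these genes.

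Rnf207, a RING finger protein known from rabbit and zebrafish to act on the Kcnh2 channel, fell in all 3 lines at 1436277_at. Its ratio lay between 0.334 and 0.596 (median 0.478) in ARG hearts, between 0.559 and 0.663 (median 0.633) in GLY hearts, between 0.504 and 0.813 (median 0.644) in AC5 hearts and between 0.809 and 1.07 (median 0.959) in NTG hearts. All ARG and GLY hearts lay below all NTG hearts, and 1 AC5 heart reached the lowest NTG heart. Rnf207 fell by 1.00 ± 0.11 (adjusted p = 1.01e-06) in ARG, by 0.60 ± 0.11 (adjusted p = 0.00245) in GLY and by 0.54 ± 0.11 (adjusted p = 0.0499) in AC5 hearts. Its second probe set, 1444404_at, fell by 0.40 ± 0.11 (adjusted p = 0.0164) in ARG hearts and was not called in GLY (-0.31, adjusted p = 0.0971) or AC5 hearts (-0.30, adjusted p = 0.439).

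Abcc9 encodes SUR2, the sulfonylurea receptor that completes ATP-sensitive channels with Kcnj8 or Kcnj11. At 1420408_a_at its ratio lay between 0.531 and 0.759 (median 0.657) in ARG hearts, between 0.537 and 0.932 (median 0.790) in GLY hearts, between 0.741 and 1.04 (median 0.947) in AC5 hearts and between 0.902 and 1.135 (median 0.957) in NTG hearts. ARG hearts lay below all NTG hearts, and the highest GLY heart lay within the NTG range. Abcc9 fell by 0.60 ± 0.11 (adjusted p = 0.000639) in ARG and by 0.38 ± 0.11 (adjusted p = 0.0466) in GLY hearts, and 3 of 3 probe sets were called in ARG and 2 of 3 in GLY hearts. Beside it, Kcnj8 fell in ARG hearts and Kcnj11 was not called. Abcc8, which encodes SUR1, the other sulfonylurea receptor, fell by 0.33 ± 0.11 (adjusted p = 0.0465) in ARG hearts at 1 of 2 probe sets.

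Nedd4l encodes a ubiquitin ligase known to act on Kcnq1 and other channels. At 1457374_at it fell by 0.83 ± 0.14 (adjusted p = 0.00217) in ARG against GLY hearts. The same probe set rose by 0.52 ± 0.14 (adjusted p = 0.0308) in GLY against NTG hearts and was not called in ARG against NTG hearts (-0.30, adjusted p = 0.224). Of its 6 probe sets 1441305_at fell by 0.44 ± 0.11 (adjusted p = 0.00914) in ARG against NTG hearts and by 0.46 ± 0.11 (adjusted p = 0.0296) in ARG against GLY hearts, with a change of 0.02 in GLY against NTG hearts. The other 4 probe sets were not called.

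Irx4, a transcription factor of the ventricle, fell by 0.35 ± 0.06 (adjusted p = 0.000362) in ARG hearts and by 0.34 ± 0.06 (adjusted p = 0.00357) in ARG against GLY hearts. Akap9, which anchors protein kinase A to the Kcnq1 channel, fell at 1 of 6 probe sets, by 0.40 ± 0.13 in ARG and by 0.53 ± 0.13 in GLY hearts. Its other probe sets were not called, and all of them were higher in ARG hearts, by 0.05 to 0.31. In GLY hearts they changed by -0.36 to 0.14. Lrrc52, a relative of the accessory subunits of large-conductance calcium-activated channels, rose at 1 of 2 probe sets, by 1.02 ± 0.18 in ARG and by 0.92 ± 0.18 in GLY hearts. The other Lrrc52 probe set was not called and changed by -0.11 in ARG and by 0.01 in GLY hearts.

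Of 12 listed genes of potassium transport 8 were found, with 17 probe sets, 2 of which fell in ARG hearts (11.8%, beside 9.67% of all). Both lay in potassium and chloride cotransporters, of which Slc12a5 fell by 0.31 ± 0.08 (adjusted p = 0.0102) and Slc12a7 by 0.32 ± 0.10 (adjusted p = 0.0433), each at 1 of 2 probe sets. No probe set of the list was called in GLY or AC5 hearts.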

How the data were processed

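Total RNA of each heart was extracted with Trizol and hybridised as biotin-labelled cRNA, per the labels' protocols. RMA is named in the submitters' processing notes, with no version given. The deposited values were linear ratios; the division by the NTG level was read from the values, and no header or label states it. After 64 Affymetrix controls were left out, log2 of the ratio was fitted for 45037 probe sets on all 24 arrays with limma (3.58.1, under R 4.3.3) as 1 mean for each genotype, and p-values were adjusted by the Benjamini-Hochberg method. Figures were drawn with matplotlib 3.10.9.

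The members, gene lists and tests were chosen with earlier results of these data known. Named were channel genes called against NTG or between ARG and GLY, 16 genes of cardiac currents (15 analysed here) and genes of the lists of partners and transport with a call in those comparisons. A gene was named at its called probe set with the lowest adjusted p, or else at the first by suffix and number. Mean levels of marker lists used that first probe set, and counts used every probe set. All 84 symbols matched the RefSeq table, which supplied the promoter sequences. The fit was tested on simulated data. The number of hearts limited the precision. Same-numbered hearts were not paired: their deviations correlated between -0.289 and 0.492 over 36 pairs.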

Additional observations from a re-analysis of the deposited data

Results flagged for a closer look

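A lone heart stood apart from the other 5 of its group in 2 of 80 tested groups of 6 hearts, where chance marks about 5% of groups. The Kcnj12 ratio was 1.36 in AC5 replicate 5, against 0.990 to 1.10 in the other AC5 hearts. The Kcnk3 ratio was 0.798 in GLY replicate 2, against 1.07 to 1.19 in the other GLY hearts.

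The change against NTG differed between transgenic lines, by the fitted difference between them, for 7 results. The difference between ARG and GLY hearts was -0.46 (log2) for Kcnk2. Between ARG and AC5 hearts the differences were -1.02 for Kcna5, -0.60 for Kcnip2, -0.48 for Kcnk2, -0.47 for Kcnv2, -0.38 for Kcnd3 and 0.45 for Kcnj14.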

How the results depend on the processing

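Of 23 called gene results, 0 reversed in 506 repeats under alternative settings, 411 repeats kept the call and 95 lost it. The calls of Kcnip2 (1436275_at), Kcnv2, Kcnk2 and Kcnq5 in ARG against NTG hearts and of Kcnip2 in ARG against AC5 hearts were kept in all of their repeats. The cause of the moves below was not tested, and fits that leave arrays out also hold fewer arrays. The counts that follow are of channel probe sets alone. The share called over all probe sets under each setting is not given, so a move need not be particular to the channel genes. In ARG against NTG hearts the 11 calls became 5 with replicates 1 to 3 alone, 20 without the 3 arrays of lowest weight and 20 with array weights. In GLY against NTG hearts the 5 calls became 1 with quantile normalization, 3 with replicates 1 to 3 alone, 0 with replicates 4 to 6 alone, 3 without the 3 arrays and 3 with only the 2 genotypes fitted. In AC5 against NTG hearts the 0 calls became 1 with quantile normalization (Kcnj14), 2 with array weights (Kcnj14 and Kcnq5) and 1 with only the 2 genotypes fitted (Kcnj14). In ARG against GLY hearts the 1 call became 0 with quantile normalization, arrays centred on the median, replicates 1 to 3 alone or only the 2 genotypes fitted, and 2 with array weights. In ARG against AC5 hearts the 6 calls became 3 with quantile normalization and 1 with replicates 1 to 3 alone. In GLY against AC5 hearts the 0 calls became 1 without the 3 arrays (Kcnip2) and 1 with only the 2 genotypes fitted (Kcna5). Leaving out 1 heart at a time gave 8 to 14 calls in ARG and 4 to 12 in GLY against NTG (12 without GLY replicate 6), 0 to 0 in AC5 against NTG, 0 to 3 in ARG against GLY (3 without GLY replicate 6), 5 to 7 in ARG against AC5 and 0 to 1 in GLY against AC5 hearts (1 without GLY replicate 1). With the replicate number as a block the counts were 10 for ARG, 6 for GLY and 0 for AC5 against NTG, 1 in ARG against GLY, 7 in ARG against AC5 and 0 in GLY against AC5 hearts; 9 of 24 arrays correlated best with an array of their own number. Since a ratio carries no brightness, no filter on dim probe sets could be applied.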

Other observations

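Other potassium channel genes came near the threshold in single comparisons and are named here after their values were seen. Kcnn2, a small-conductance calcium-activated channel, changed by -0.31 in ARG against NTG hearts (adjusted p = 0.0891). Kcna7, a voltage-gated subunit, changed by -0.24 in ARG against NTG hearts (adjusted p = 0.061), and the groups did not overlap. Kcna6, also voltage-gated, changed by 0.30 in GLY against NTG hearts (adjusted p = 0.0578), again with no overlap. Kcnk1, the 2-pore channel TWIK-1, differed by -0.33 in ARG against AC5 hearts (adjusted p = 0.0552).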
